A study of Homo sapiens with 4 samples.

Results

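The genes described here are 10 co-chaperones, chosen by name and with earlier results of these data known. Of these, 6 are the members of the BAG family (BAG1, BAG2, BAG3, BAG4, BAG5 and BAG6). The other 4 are partners of HSP90 (STIP1, CHORDC1, AHSA1 and FKBP4). The 10 genes are among the 57820 in the count files, and all 10 had enough fragments to be among the 16468 genes tested. RNA came from SY5Y, an established human neuroblastoma cell line labelled MYCN wild type, harvested 12 h after treatment, with 2 libraries of cells given the solvent DMSO and 2 libraries of cells given SGSS05-NS. The labels name the compound SGSS05-NS at 3 μM, while the study's text calls its SETD8 inhibitor SGSS05-NS3 and its methods give a lower dose for this cell line although the labelled dose also stands in its figure legends, so the dose behind these libraries is not settled here. All 4 libraries are of a single cell line, and the study describes the replicates as independent biological ones.

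Chaperones of the HSP70 and HSP90 families fold client proteins in cycles of ATP binding and hydrolysis, and co-chaperones set the pace and the outcome of those cycles. Most BAG proteins bind the ATPase domain of HSP70 through their BAG domain and promote release of nucleotide and client, and several of them steer clients towards the proteasome or towards autophagy. Co-chaperones of HSP90 deliver clients, speed up or slow down its ATPase, or add an enzymatic activity of their own. Many chaperone genes are under the control of heat shock factor 1 (HSF1), which binds repeats of a short unit, the heat shock element, in the promoters of its targets.

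The promoters of BAG3, whose level changed most, and of the 3 genes with heat shock element letters are shown first, as sequence context for the values that follow. RefSeq promoters (250 bases before to 50 bases after an annotated start, build GRCh38.p14) were at hand for 8 of the 10 genes, with 12 promoters in all, and BAG4 and FKBP4 were not among them. Each was searched on both strands for 3 alternating units of the heat shock element (GAANNTTCNNGAA or TTCNNGAANNTTC) and for 2 units (GAANNTTC or TTCNNGAA), which lie within the longer letters wherever those occur. Capitals mark the 3-unit letters where present, and otherwise the 2-unit letters. The sequences are those of BAG3 (chr10:119651130-119651429, plus strand), CHORDC1 (chr11:90223000-90223299, minus strand), BAG2 (chr6:57172076-57172375, plus strand) and STIP1 (chr11:64185921-64186220, plus strand), written 5′ to 3′.
BAG3: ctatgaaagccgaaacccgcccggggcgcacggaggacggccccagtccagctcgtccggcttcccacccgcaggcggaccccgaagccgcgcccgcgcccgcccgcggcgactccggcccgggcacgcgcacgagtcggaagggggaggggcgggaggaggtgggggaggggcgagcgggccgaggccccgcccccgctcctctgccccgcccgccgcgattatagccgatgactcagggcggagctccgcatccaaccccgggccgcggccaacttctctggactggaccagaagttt
CHORDC1: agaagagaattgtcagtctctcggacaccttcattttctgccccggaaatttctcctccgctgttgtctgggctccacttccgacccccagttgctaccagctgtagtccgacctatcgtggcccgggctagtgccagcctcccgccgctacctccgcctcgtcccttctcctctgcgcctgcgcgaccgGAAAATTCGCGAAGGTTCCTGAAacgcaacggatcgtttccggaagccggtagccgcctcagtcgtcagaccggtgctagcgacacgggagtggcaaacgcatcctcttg
BAG2: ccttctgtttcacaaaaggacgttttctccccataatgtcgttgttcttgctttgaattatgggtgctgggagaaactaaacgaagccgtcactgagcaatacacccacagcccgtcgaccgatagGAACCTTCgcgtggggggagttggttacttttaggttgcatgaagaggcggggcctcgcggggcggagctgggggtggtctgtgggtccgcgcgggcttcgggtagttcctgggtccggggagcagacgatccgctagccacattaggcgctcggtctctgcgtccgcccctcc
STIP1: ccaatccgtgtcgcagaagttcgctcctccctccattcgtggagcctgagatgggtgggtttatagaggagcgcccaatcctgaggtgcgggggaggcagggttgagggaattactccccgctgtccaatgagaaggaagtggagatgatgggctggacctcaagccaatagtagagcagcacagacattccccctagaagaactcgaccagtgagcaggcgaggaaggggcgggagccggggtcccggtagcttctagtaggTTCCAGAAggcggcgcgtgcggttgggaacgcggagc

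CHORDC1 was the only one of the 8 genes whose promoter held the 3-unit letters, which the promoters of 0.608% of all 27305 genes in the table held. In it, 5 alternating units followed each other without a gap over 23 bases, from position -60 to position -38 relative to the annotated start. The 2-unit letters occurred in the promoters of 3 of the 8 genes (CHORDC1, BAG2 and STIP1) and in those of 16.2% of all genes. Counted by promoter, they were in 3 of the 12, beside 13.5% of all 35116. In BAG2 they began at position -124, and in STIP1 at position 13 after the start. BAG3 held neither in this window. Of 47 other genes of the chaperone pathway with promoters at hand, 3 (6.38%) held the 3-unit letters: HSPA8, HSP90AA1 and HSP90AB1. HSPA1A, HSPB1 and HSPH1 were among those without them. The 2-unit letters were in 14 of the 47 (29.8%). All of these are matches of letters in a fixed window and not mapped binding sites.

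The 4 libraries held between 21463105 and 25350204 fragments on genes, and levels are given as CPM, the fragments of a gene per 1000000 fragments on genes, with library sizes scaled by TMM. The library labels and the expressed genes were compared: of 10 genes typical of neuroblastoma cells, 9 were expressed and TH had fewer than 10 fragments in all libraries together, while PRRX1, DCN, CD3E and KRT5, which mark mesenchymal, lymphoid and epithelial cells, had no fragment in any library. Other markers of such cells were present: the epithelial gene EPCAM had 37 and 37 fragments with DMSO and 53 and 84 with SGSS05-NS, CDH1 had 11 and 11 against 1 and 1, and 6 of the 8 mesenchymal genes were expressed. The summed level of the 10 neuroblastoma genes was 4143 and 4488 CPM with DMSO and 2528 and 2488 CPM with SGSS05-NS, and 7 of the 9 tested were lower with SGSS05-NS. In RNA from whole cultures, fewer cells of a type and less RNA per cell cannot be told apart. The summed level of 8 mesenchymal genes was between 69.9 and 75.6 CPM in all 4 libraries, most of it from THY1 (57.7 to 69.0 CPM), and that of 7 genes of other cell types between 1.95 and 3.66 CPM. Within the mesenchymal list, COL5A2 fell from 6.89 and 5.69 CPM to 1.53 and 1.66 CPM (log2 fold change -1.98, adjusted p = 2.7e-05), and 4 of the 6 genes tested had a log2 fold change under 0 (median -0.27). Fragments that met no annotated exon on the strand used for counting made up 12.3% to 12.4% of all fragments with DMSO and 15.3% to 16.1% with SGSS05-NS. The part of these shifts in the results below was not tested. KMT5A, which encodes SETD8, rose from 54.6 and 56.8 CPM to 82.8 and 82.9 CPM (log2 fold change 0.57, standard error 0.09, adjusted p = 0.00037), and its RNA level does not report on inhibition of the protein.

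With SGSS05-NS, 6 of the 10 co-chaperone genes rose and none fell at an adjusted p-value under 0.001 (quasi-likelihood F-test of edgeR, p-values adjusted by Benjamini-Hochberg across the 16468 genes). BAG3 rose most, 8.33-fold, followed by CHORDC1 (3.15-fold), FKBP4 (2.35-fold), BAG2 (1.83-fold), BAG1 (1.64-fold) and STIP1 (1.54-fold). Of all genes tested, 6.37% rose and 8.14% fell by the same rule. The fitted log2 fold change was above 0 for all 10 genes, with a median of 0.67, beside a median of 0.01 over all genes tested. Since the 10 genes were chosen with earlier results of these data known, these comparisons with all genes describe the genes and do not test them. By family, 3 of the 6 BAG genes rose (median 0.51) and 3 of the 4 HSP90 partners (median 0.93). In 9 of the 10, both SGSS05-NS libraries lay above both DMSO libraries, an order found in 37.8% of all genes tested, while the opposite order was found in 36.9%. With 2 libraries per condition, the error of each gene in this test is drawn partly from the other genes.

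**Figure D1:**
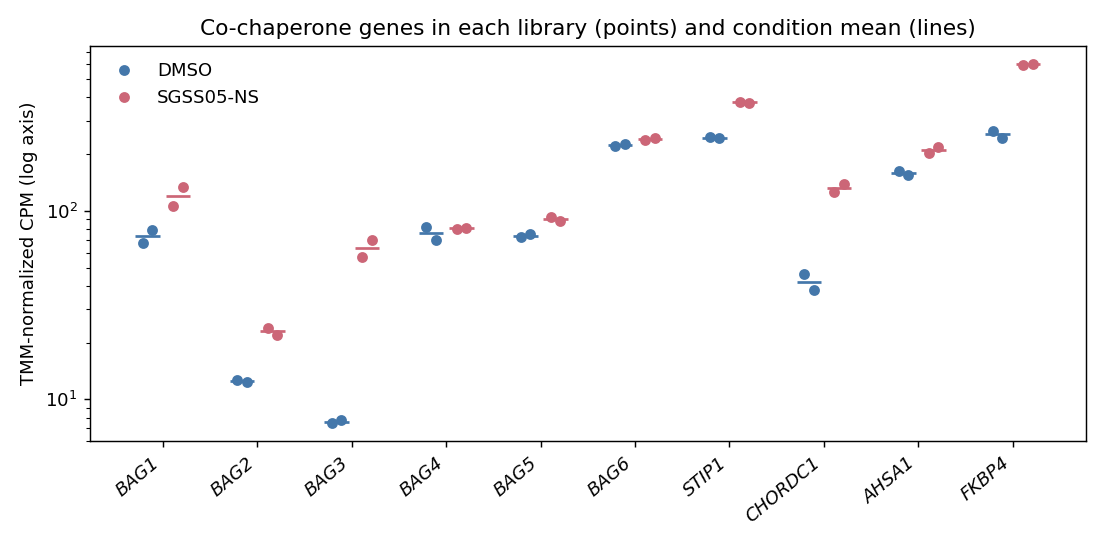
TMM-normalized CPM (log axis) of the 10 co-chaperone genes in each library, with DMSO in blue and SGSS05-NS in red, points for libraries and short lines for the condition mean. The gap between conditions is widest for BAG3, from 7.45 and 7.79 CPM to 56.7 and 70.3 CPM, and the points of BAG4 overlap.

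BAG3 (ENSG00000151929.5, chromosome 10 of GRCh37 from 121410892 to 121437331, plus strand) encodes the stress-inducible BAG protein that links HSP70 to the small heat shock proteins HSPB8 and HSPB6 and sends aggregated clients to autophagy. Its fragments numbered 187 and 182 without the compound and 1258 and 1653 with it. Its level was 7.45 and 7.79 CPM with DMSO and 56.7 and 70.3 CPM with SGSS05-NS, so the conditions were far apart although the treated libraries differed from each other more than the controls did. This was a log2 fold change of 3.06 ± 0.13 (SE) at an adjusted p of 2.1e-08. BAG3 had rank 20 of all genes tested by p-value, and 144 genes (0.874%) had a larger fitted log2 fold change. The genes whose levels over the 4 libraries lay closest to those of BAG3, after each gene was centred on its DMSO mean in log2 CPM, were PPP1R15A (distance 0.04), SIX4 (0.14) and ALOXE3 (0.22). With 4 libraries in 2 conditions this likeness mostly reflects the size of the change.

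BAG2 (ENSG00000112208.10, chromosome 6 from 57037124 to 57054631, plus strand) encodes an inhibitor of the ubiquitin ligase CHIP, which works with HSP70. Its level was low, at 12.7 and 12.4 CPM with DMSO, and reached 23.9 and 21.9 CPM with SGSS05-NS. Neither condition overlapped the other, and the difference between conditions was several times that between replicates. This was a log2 fold change of 0.87 ± 0.12 (SE) at an adjusted p of 0.00016. Its exons share 2842 bases with exons of RAB23 on the opposite strand, and the column for that strand held 201 and 157 fragments at BAG2 with DMSO and 169 and 196 with SGSS05-NS.

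BAG1 (ENSG00000107262.12, chromosome 9 from 33247818 to 33264718, minus strand) encodes the founding member of the family, which couples HSP70 to the proteasome through a ubiquitin-like domain. It was measured at 67.2 and 79.3 CPM with DMSO and at 106 and 133 CPM with SGSS05-NS. Its replicates lay further apart, relative to the change, than those of BAG2 or BAG3, but the lower treated library was still above the higher control. This was a log2 fold change of 0.71 ± 0.12 (SE) at an adjusted p of 0.00062. Without SGSS05-NS replicate 2 it was 0.54 with an adjusted p of 0.00104, just above the threshold of 0.001, and with counts taken without regard to strand it was 0.66 with an adjusted p of 0.0012.

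The other 3 BAG genes did not pass the threshold. BAG5 (chromosome 14 from 104022882 to 104028994), which encodes a protein with several BAG domains, was at 72.5 and 74.9 CPM with DMSO and at 93.1 and 88.7 CPM with SGSS05-NS. These values did not overlap, and the log2 fold change was 0.30 (95% interval 0.10 to 0.50, adjusted p = 0.018). BAG6 (chromosome 6 from 31606805 to 31620482), whose product holds newly made tail-anchored and mislocalized membrane proteins in the cytosol, was at 222 and 226 CPM with DMSO and at 238 and 243 CPM with SGSS05-NS. Its log2 fold change was 0.10 (95% interval -0.09 to 0.30, adjusted p = 0.38). BAG4 (chromosome 8 from 38034051 to 38070819), known as silencer of death domains for its binding to TNF receptor 1, was at 82.0 and 69.8 CPM with DMSO and at 80.0 and 81.4 CPM with SGSS05-NS. The conditions overlapped for BAG4, and the log2 fold change was 0.09 (95% interval -0.13 to 0.31, adjusted p = 0.50). For BAG4 and BAG6, the intervals leave out a change as large as that of BAG1, BAG2 or BAG3.

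Among the HSP90 partners, CHORDC1 (ENSG00000110172.7, chromosome 11 from 89933597 to 89956245, minus strand) changed most. It encodes a zinc-binding protein with CHORD domains, also called morgana, that binds HSP90. Its fragments numbered 1165 and 885 with DMSO and 2808 and 3275 with SGSS05-NS, or 46.4 and 37.9 CPM against 127 and 139 CPM. The lower treated library was far above the higher control, although the controls differed from each other. This was a log2 fold change of 1.66 ± 0.11 (SE) at an adjusted p of 7.4e-07, and the gene had rank 104 by p-value. Its promoter was the one with the 5 units in a row.

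FKBP4 (ENSG00000004478.5, chromosome 12 from 2904136 to 2914589, plus strand) encodes FKBP52, a peptidyl-prolyl isomerase that joins HSP90 in complexes with steroid hormone receptors. It was at 265 and 244 CPM with DMSO and at 595 and 602 CPM with SGSS05-NS, with treated libraries that lay close together. This was a log2 fold change of 1.23 ± 0.10 (SE) at an adjusted p of 1.8e-06, and the gene had rank 162 by p-value. FKBP4 shares exon bases with non-coding genes on the opposite strand, and counting without regard to strand kept 73.8% of its fragments. By that count its log2 fold change was 1.24.

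STIP1 (ENSG00000168439.12, chromosome 11 from 63952744 to 63972015, plus strand) encodes HOP, the adaptor that holds HSP70 and HSP90 together while a client passes from the former to the latter. It was at 247 and 242 CPM with DMSO and at 377 and 376 CPM with SGSS05-NS, with replicates that differed by little in either condition. This was a log2 fold change of 0.62 ± 0.09 (SE) at an adjusted p of 0.0002. AHSA1 (ENSG00000100591.3, chromosome 14 from 77924213 to 77935815, plus strand) encodes AHA1, the strongest known activator of the HSP90 ATPase. Its level was 164 and 155 CPM with DMSO and 202 and 218 CPM with SGSS05-NS. These values did not overlap, but the log2 fold change of 0.40 (95% interval 0.19 to 0.60) had an adjusted p of 0.0048 and missed the threshold of 0.001.

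**Figure D2:**
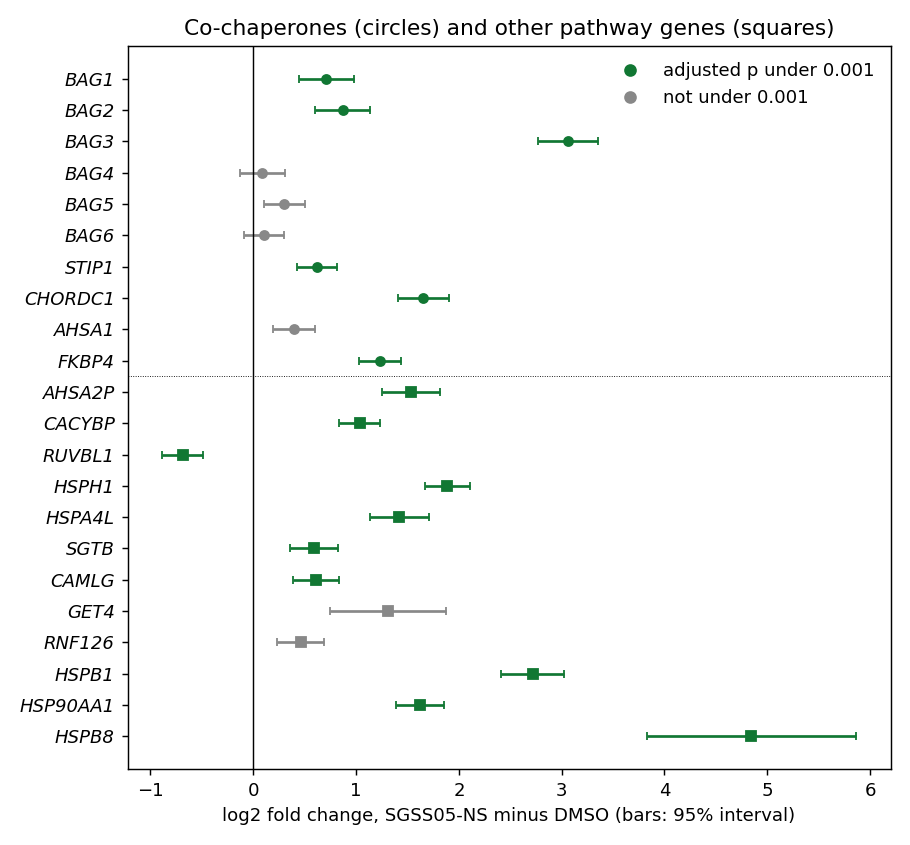
Log2 fold change (SGSS05-NS minus DMSO) with its 95% interval from edgeR's fit for the 10 co-chaperone genes (circles) and for other genes of the pathway named by rule (squares), in green where the adjusted p was under 0.001 and in grey otherwise. BAG3 stands at 3.06, the intervals of BAG4 and BAG6 span 0, and RUVBL1 is the plotted gene under 0, at -0.69.

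To compare the genes with each other, CPM was divided by the length of the annotated exons of each gene in kb, counted once over all its transcripts. This length includes rarely used exons, so the levels of genes with many long transcripts are understated. With DMSO, the highest levels per length were those of AHSA1 (54.1 CPM per kb on average), STIP1 (53.2) and FKBP4 (49.4), and the lowest those of CHORDC1 (3.80), BAG3 (2.78) and BAG2 (1.89). Neighbours in this order whose 2 libraries overlapped were AHSA1 with STIP1 and BAG4 with BAG5. With SGSS05-NS, the order began with FKBP4 (115.9 CPM per kb on average), STIP1 (81.8) and AHSA1 (71.3). BAG6 (38.1) came next, and BAG3 (23.2) moved from the ninth to the fifth place. BAG5 (17.8), BAG1 (16.9) and BAG4 (16.8) then followed, with libraries that overlapped between neighbours. CHORDC1 (12.0) and BAG2 (3.44) stayed at the end.

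**Figure D3:**
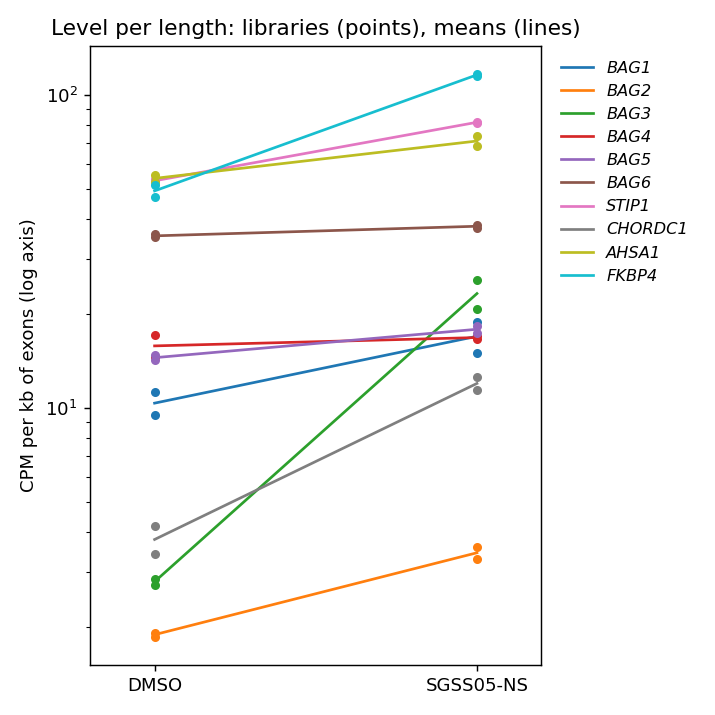
Level per length (CPM per kb of annotated exons, log axis) of the 10 genes with DMSO and with SGSS05-NS, with points for libraries and lines joining the condition means. The line of BAG3 is the steepest and crosses those of CHORDC1, BAG1, BAG4 and BAG5.

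The make-up of the BAG family by level per length differed between the conditions. Summed over the 6 genes, it was 80.5 and 80.9 CPM per kb with DMSO and 111.9 and 120.6 CPM per kb with SGSS05-NS. BAG3 made up 3.38% and 3.52% of this sum with DMSO and 18.5% and 21.3% with SGSS05-NS. The share of BAG6 was 43.6% and 44.2% with DMSO and 33.7% and 31.9% with SGSS05-NS, although the level of BAG6 itself did not pass the test. Among the 4 HSP90 partners, whose sum was 164.9 and 156.1 CPM per kb with DMSO and 277.1 and 284.8 CPM per kb with SGSS05-NS, the share of FKBP4 was 31.2% and 30.3% with DMSO and 41.6% and 40.9% with SGSS05-NS. The share of AHSA1 was 33.7% and 33.8% with DMSO and 24.7% and 26.0% with SGSS05-NS.

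The chaperones that these proteins serve changed as well. HSP90AA1, the inducible cytosolic HSP90, was at 1377 and 1442 CPM with DMSO and at 4635 and 4046 CPM with SGSS05-NS (log2 fold change 1.62, adjusted p = 5.6e-07). The constitutive forms HSP90AB1 and HSPA8 had log2 fold changes of 0.69 and 0.74 (adjusted p = 0.00015 and 0.00017). For each 1000 units of the summed level per length of HSP90AA1 and HSP90AB1, AHSA1 had 56.2 and 52.6 units with DMSO and 33.3 and 37.6 units with SGSS05-NS. The same ratio was 54.3 and 52.6 with DMSO and 39.8 and 41.5 with SGSS05-NS for STIP1. FKBP4 had 52.0 and 47.3 units with DMSO and 56.0 and 59.3 with SGSS05-NS, and CHORDC1 4.23 and 3.41 against 5.54 and 6.38. These ratios, which were not tested, were lower with SGSS05-NS in both libraries for AHSA1 and STIP1 and higher in both for FKBP4 and CHORDC1.

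Small heat shock proteins that bind BAG3 were among the partners that rose. HSPB1 (HSP27) was at 50.6 and 37.3 CPM with DMSO and at 313 and 266 CPM with SGSS05-NS (log2 fold change 2.72, standard error 0.14, adjusted p = 1.2e-07). HSPB8, the direct partner of BAG3 in chaperone-assisted autophagy, had 1 and 3 fragments with DMSO and 62 and 53 with SGSS05-NS. The ratio of its scaled counts was 30.5, with an exact binomial 95% interval from 11.6 to 114 that covers counting error only. By the fit, its log2 fold change was 4.23 without DMSO replicate 1 and 5.79 without DMSO replicate 2. HSPA1A, the inducible HSP70, had 1 and 1 fragments with DMSO and 6 and 22 with SGSS05-NS, too few for the test, and fragments that map both to it and to its near-identical copy HSPA1B are counted for neither. HSF1 and HSF2 themselves, at log2 fold changes of 0.35 and 0.28, did not pass the threshold (adjusted p = 0.018 and 0.044). Of the 9 genes on this list, which holds chaperones and the factors HSF1 and HSF2, 7 were tested and 5 rose. The 2 that did not pass were HSF1 and HSF2. The median log2 fold change was 0.74, and 6.37% of all genes tested rose.

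Of 34 further HSP90 co-chaperones, 32 were tested, 3 rose, 1 fell and 28 did not pass. The median log2 fold change was within 0.001 of 0, with 16 genes on either side of 0. Over all genes tested, 6.37% rose and 8.14% fell by the same rule. The lists were chosen with earlier results of these data known, so such counts describe them and do not test them. AHSA2P, annotated as a pseudogene related to AHSA1, rose from 10.3 and 9.16 CPM to 26.7 and 29.8 CPM (log2 fold change 1.54, standard error 0.13, adjusted p = 3.6e-06). CACYBP, a calcyclin-binding protein with a domain like that of SGT1, rose from 159 and 161 CPM to 318 and 337 CPM (log2 fold change 1.03, adjusted p = 5.5e-06). PPID, the cyclophilin of HSP90 complexes, also rose (log2 fold change 0.50, adjusted p = 0.00098, close to the threshold). RUVBL1, an ATPase of the R2TP complex that works with HSP90 in the assembly of large complexes, fell from 162 and 157 CPM to 102 and 96.8 CPM (log2 fold change -0.69, adjusted p = 0.00011).

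Of 12 other cofactors of HSP70, all were tested, 3 rose and 9 did not pass, while 6.37% of all genes tested rose. The median log2 fold change of the 12 was 0.20. HSPH1 (HSP110), a nucleotide exchange factor like the BAG proteins, rose from 257 and 259 CPM to 1007 and 898 CPM (log2 fold change 1.89, adjusted p = 1.3e-07). Its relative HSPA4L rose from 36.8 and 33.4 CPM to 108 and 80.3 CPM (log2 fold change 1.42, adjusted p = 7.4e-06), whereas HSPA4, of the same family, was at 334 and 351 CPM with DMSO and at 343 and 347 CPM with SGSS05-NS (log2 fold change 0.01, adjusted p = 0.94). SGTB, a small adaptor with tetratricopeptide repeats, had a log2 fold change of 0.59 with an adjusted p of 0.00097, close to the threshold, and it did not pass with any single library left out. STUB1, which encodes CHIP, did not pass (log2 fold change -0.15). Of the 12 genes, 8 had a log2 fold change above 0 and 4 under 0. The lowest was that of SIL1 (-0.62, adjusted p = 0.015), which did not pass.

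In the pathway of BAG6, which hands tail-anchored proteins to the endoplasmic reticulum, 7 genes were tested, with a median log2 fold change of 0.14. Over all genes tested 6.37% rose, and in this pathway 1 gene rose. That gene was CAMLG, a receptor of the pathway in the membrane, at 50.1 and 42.3 CPM with DMSO and 70.6 and 70.7 CPM with SGSS05-NS (log2 fold change 0.61, adjusted p = 0.00057). Without DMSO replicate 2 its adjusted p was 0.0059. GET4, which binds BAG6 directly, was measured at 1.36 and 1.03 CPM against 2.88 and 3.06 CPM (log2 fold change 1.31, adjusted p = 0.0015), and RNF126, the ubiquitin ligase recruited by BAG6, had a log2 fold change of 0.46 (adjusted p = 0.0039). Of the 7 genes, 4 had a log2 fold change above 0 and 3 under 0. Among the latter were GET1 (-0.36, adjusted p = 0.0093) and GET3 (-0.34, adjusted p = 0.014), which did not pass. Over the 4 lists together, 57 of 61 genes were tested, 12 rose and 1 fell, and SGTA stood on 2 of the lists. Of all genes tested, 6.37% rose and 8.14% fell.

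**Figure D4:**
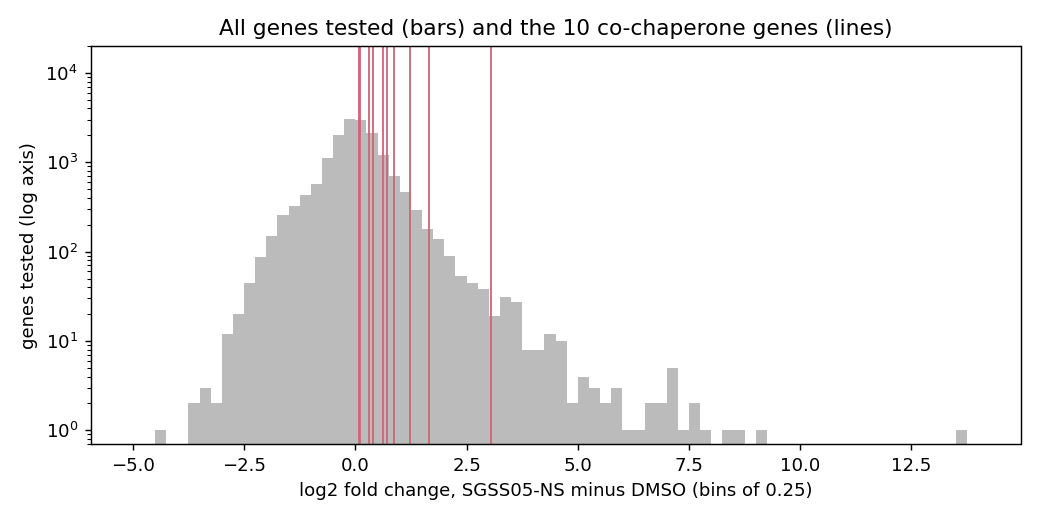
Number of genes tested (log axis) by log2 fold change (SGSS05-NS minus DMSO) in bins of 0.25, with red lines at the 10 co-chaperone genes. All 10 lines lie above 0, from 0.09 for BAG4 to 3.06 for BAG3, and 144 genes lie to the right of BAG3.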

How the data were processed

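RNA of SY5Y cells was measured in 2 DMSO and 2 SGSS05-NS libraries. The authors used Trimmomatic 0.30 for trimming and STAR 2.4.2a for alignment of the read pairs to hg19, and deposited raw fragment counts per gene in 3 columns, without normalization. The reverse-strand column was used, since the forward column held 4.64% to 5.05% of the fragments in either. The 4 summary rows (37.3% to 38.8% of fragments) were left out. Fragments with several mapping positions are left out of gene counts. The labels name an RNA kit and the study's methods a strand-specific one that depletes ribosomal RNA.

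Gene identifiers were matched to GENCODE release 44 (lifted to GRCh37) for symbols, positions and exon lengths (55538 of 57820 matched, and 1 listed gene, PECAM1, had no match). Counts were analysed in R 4.3.3 with edgeR 4.0.16: filterByExpr, TMM, the quasi-likelihood test and Benjamini-Hochberg adjustment over 16468 genes, with a threshold of 0.001. The standard error is the log2 fold change divided by the square root of F, and 95% intervals use the moderated degrees of freedom. Alternatives used DESeq2 1.42.0 and limma 3.58.1. The test was checked on simulated counts. There, of 16468 genes, 67 were changed 1.5-fold, 67 were changed 2-fold and 66 were changed 4-fold. The test recovered 19.4% of the 1.5-fold, 59.7% of the 2-fold and 87.9% of the 4-fold changes, with 0 false calls. These rates belong to that number of changed genes. Recovery with as many changed genes as passed in the data (1049 higher and 1341 lower) was not tested. A gene that did not pass is not shown to be unchanged.

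The genes described and the lists were chosen with earlier results of these data known. Of each other list, the 3 genes with the smallest p-values were named. HSPA8, HSP90AB1, PPID, HSPA4, STUB1, SIL1, HSPA1A, HSF1, HSF2, GET1, GET3 and the single marker genes were chosen after their values were seen. Replicates differed by more than counting error would give (chi-square over degrees of freedom 8.76 for DMSO and 11.8 for SGSS05-NS).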

Additional observations from a re-analysis of the deposited data

Results flagged for a closer look

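The column for the opposite strand, which no comparison above uses, held more fragments at 3 of the 10 genes in both SGSS05-NS libraries than in either DMSO library, with at least 30 fragments in all and a ratio of at least 2. Of the 10 genes, 8 had at least 30 such fragments, and of all 4948 genes tested that had as many, 23.1% met the same rule. The share of fragments in that column was also higher over all genes, at 4.64% to 4.67% with DMSO and 5.04% to 5.05% with SGSS05-NS. At STIP1 it held 38 and 35 fragments with DMSO and 89 and 154 with SGSS05-NS, a ratio of the scaled means of 3.50. A non-coding gene on that strand (ENSG00000289486) shares 445 exon bases with STIP1. At BAG5, where 72 bases are shared with KLC1, it held 1 and 6 fragments with DMSO and 11 and 12 with SGSS05-NS, a ratio of 3.39. At CHORDC1 it held 12 and 16 fragments with DMSO and 28 and 30 with SGSS05-NS, a ratio of 2.18, and the share of both strands' fragments was 1.35% with DMSO and 0.944% with SGSS05-NS. The ratios were not tested.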

How the results depend on the processing

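The co-chaperone genes called higher numbered 6 under each other test, scaling and filter and with the replicate number as a block, 5 with counts taken without regard to strand, 5 to 6 with single libraries left out, and 8 at an adjusted p under 0.05, where BAG5 and AHSA1 are added. None was lower in any of these. The call lost was that of BAG1. When a library is left out, the remaining library of its condition is assumed to vary like the other condition. The log2 fold change of BAG4 ranged from -0.042 to 0.201 with single libraries left out, and it was the lower value, a change of sign, without DMSO replicate 2. Ranges with single libraries left out were 2.90 to 3.20 for BAG3, 1.15 to 1.28 for FKBP4, 0.80 to 0.93 for BAG2, 0.54 to 0.86 for BAG1 and 0.59 to 0.63 for STIP1.

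Over all genes, 1049 were higher and 1341 lower. The likelihood ratio test gave 2022 and 2267, no filter on low counts 2034 and 2570, and an adjusted p under 0.05 gave 3728 and 3903. With the replicate block, 1759 were higher and 2007 lower. The correlation of same-numbered libraries' deviations was 0.05. The labels do not say what the number marks, and whether same-numbered libraries share a batch was not tested. With single libraries left out, 1037 to 1279 were higher and 1322 to 1649 lower. Of the 4 other lists, 12 genes were higher and 1 was lower. At an adjusted p under 0.05 these were 23 and 9. The number lower was 3 with the likelihood ratio test, 3 with DESeq2, 4 with no filter, 2 with the replicate block, and 1 to 2 with single libraries left out, where 9 to 14 were higher. The cause was not tested. Of the genes named from each other list by smallest p-value, SGTB, CAMLG, GET4 and RNF126 crossed the threshold under some alternatives. PPID, which passed close to the threshold, was not followed across the alternatives.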

Other observations

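Near-identical copies can take or lose fragments of a gene. Pseudogenes named after BAG1 (1 gene), STIP1 (1), CHORDC1 (4) and FKBP4 (4) were in the count files. That of BAG1 had 0 fragments in all 4 libraries. The copy of STIP1 held 18 and 36 fragments with DMSO and 15 and 15 with SGSS05-NS, and the copies of CHORDC1 together held 8 and 15 with DMSO and 18 and 16 with SGSS05-NS. Those of FKBP4 held 3 and 3 with DMSO and 1 and 1 with SGSS05-NS. Each number is small beside the fragments of its parent gene, but fragments that map equally well to gene and copy are in neither.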
